A study of Mus musculus with 2 samples.

Results

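The genes described here are 10 genes of glucocorticoid signaling, of the 32285 genes measured in single cells of the adult mouse DG (the dentate gyrus of the hippocampus). They are both receptors, Nr3c1 and Nr3c2, and 8 genes that the receptors induce in many tissues, namely Fkbp5, Tsc22d3, Ddit4, Sgk1, Per1, Klf9, Errfi1 and Zbtb16. They were found by symbol in the deposited tables of all 12 clusters. The list was chosen by the pathway and by the ratio of the iKD over the WT level of some of these genes, which was already known, so the differences between genotypes are given as a description.

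Cells came from adult mice that were 7 to 10 weeks old when the experiment began, 21 d after tamoxifen (TAM). The WT library was from NestinCreERT2;VEGFWT/WT;ROSA-STOP-EYFP mice and the library labelled KO, here called iKD as in the study, from NestinCreERT2;VEGFfloxed;ROSA-STOP-EYFP mice. Both groups thus carried the Cre and the EYFP reporter and received TAM, and they differed in the floxed Vegfa allele. Each library pooled 5 mice of both sexes, EYFP+ cells were sorted, and 1 library per genotype was sequenced. CreERT2 was driven by the Nestin promoter, so recombination was directed to Nestin-expressing cells, and no label ties a cell to a mouse.

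Glucocorticoids enter the cell and bind the glucocorticoid receptor (Nr3c1) or, with higher affinity, the mineralocorticoid receptor (Nr3c2). Both are transcription factors that are held in the cytoplasm by chaperones, move to the nucleus when they bind hormone, and activate genes through an inverted repeat of short half-sites, the glucocorticoid response element. Fkbp5 is a strongly induced target whose protein in turn lowers the affinity of the receptor for hormone, and in brain tissue its mRNA is a common readout of recent glucocorticoid exposure.

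The windows of 250 bases before and 50 after each RefSeq transcription start (build GRCm38.p6) were searched for the full element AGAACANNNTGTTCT and for its half-site AGAACA, on both strands, where a half-site may be part of a full element. Windows of 8 of the 10 genes were searched, 17 windows in all. Those of Nr3c1 and Zbtb16 were not searched, so the absence of a match is not shown for these genes. Of 32851 windows of all genes, 18.97% held a half-site and only 3 held the full element. One of these 3 was the window of a start of Sgk1, in which the full element begins at position -189 from the start. The first 2 sequences below are this Sgk1 window, which is 1 of 3 windows of Sgk1 with a half-site, and the 1 window of Tsc22d3 with a half-site, and the last is that of Fkbp5, with 0 matches to either, shown because the results turn on this gene. Capitals mark the letters of the full element or half-site.
Sgk1, chr10:21993640-21993939, + strand: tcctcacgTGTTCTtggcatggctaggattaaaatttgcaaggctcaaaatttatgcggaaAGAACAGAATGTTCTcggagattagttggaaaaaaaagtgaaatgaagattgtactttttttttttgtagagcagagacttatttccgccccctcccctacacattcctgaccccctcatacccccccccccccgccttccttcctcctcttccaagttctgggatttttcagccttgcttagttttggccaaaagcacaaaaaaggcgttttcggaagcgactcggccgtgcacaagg
Tsc22d3, chrX:140600473-140600772, - strand: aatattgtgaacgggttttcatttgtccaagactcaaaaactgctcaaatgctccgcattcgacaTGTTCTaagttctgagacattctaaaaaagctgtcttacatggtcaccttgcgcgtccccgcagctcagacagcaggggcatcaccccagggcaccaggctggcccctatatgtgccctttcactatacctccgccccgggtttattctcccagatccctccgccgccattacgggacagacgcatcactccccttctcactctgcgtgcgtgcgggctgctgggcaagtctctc
Fkbp5, chr17:28486100-28486399, - strand: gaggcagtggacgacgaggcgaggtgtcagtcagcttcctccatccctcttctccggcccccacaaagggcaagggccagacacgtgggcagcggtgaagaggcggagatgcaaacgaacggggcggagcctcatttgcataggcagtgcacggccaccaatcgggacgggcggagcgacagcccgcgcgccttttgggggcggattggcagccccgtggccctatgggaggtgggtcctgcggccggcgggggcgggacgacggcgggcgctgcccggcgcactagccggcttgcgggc
The Sgk1 and Fkbp5 windows lie inside the GENCODE spans of these genes, chr10:21882184-21999903 and chr17:28399094-28517527, at internal starts, and that of Tsc22d3 lies across the outermost start of its span, chrX:140539528-140600659. The last 50 bases of each window follow the annotated start. Of the 17 windows, 4 held a half-site and 1 the full element. A match is a match of letters, and enhancers farther away were not searched.

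Depth is in UMIs (unique molecular identifiers, counted as molecules). The WT tables held 44142118 UMIs in 5543 cells, a median of 8051 per cell. For iKD it was 37451839 UMIs in 5261 cells, a median of 7080. The level of a gene is its mean over cells of UMIs per 10,000 UMIs of the cell. Unless a cluster is named, levels are over the 6 clusters that the authors named qNSC1, qNSC2, aNSC, NSPCs, IPC1 and IPC2. In these 7164 cells, the 10 microglia markers checked were seen in a median of 99.9% of cells and the 9 neural stem cell markers in a median of 0.335%, so the cluster names are used only as the names of tables. The cluster named Astrocytes, of 134 cells, held each of 8 choroid plexus markers in at least 52.2% of cells. The same 8 markers differed between the libraries within the 6 clusters, where their summed level was 0.148 in WT female, 0.165 in WT male, 10.6 in iKD female and 10.5 in iKD male cells, and 1 of them had a UMI in 99.7% of iKD cells and in at most 9.46% of WT cells. They were thus equally high in iKD cells of both sexes, and their part in the results was not tested. The microglia markers had summed levels of 367.9 to 391.0 in the 4 groups. Vegfa, the targeted gene, had a UMI in 1.55% of the 3752 WT cells of the 6 clusters, with an interval of 1.18 to 1.99. For iKD the share was 0.909%, with an interval of 0.618 to 1.29. The sources used here do not say which part of the gene is floxed, and a count of sequence outside that part would not check the label. The libraries shared 9 cell barcodes.

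Cells were scored as female by an Xist UMI without a UMI of Ddx3y, Eif2s3y, Uty or Kdm5d, and as male by the reverse. The 6 clusters held 1765 female and 1686 male WT cells, and 2230 female and 918 male iKD cells. Male cells thus made up 44.9% of WT cells and 26.9% of iKD cells, and another 1.59% of all cells had UMIs of both kinds. Each of these 4 groups comes from an unknown number of the 5 mice of its pool, so the sex of the cells and the animals they come from cannot be told apart. With 1 library per genotype no test between genotypes or sexes was possible and no p-value is given. The ranges in parentheses are exact 95% intervals, Poisson for levels and binomial for shares and ratios, and cover counting error only. In all comparisons, a log2 ratio of at least 0.5 in either direction, in a gene with a level of at least 0.1 in one of the groups, is called a difference.

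Over the 6 clusters together the receptor Nr3c1 was at nearly the same level in all groups. Its level was 2.94 in WT female cells (2.85 to 3.03), 2.89 in WT male cells (2.80 to 2.98), 2.95 in iKD female cells (2.87 to 3.04) and 3.16 in iKD male cells (3.03 to 3.30). The log2 ratio of iKD over WT was 0.05 over all cells, 0.01 in female cells (-0.05 to 0.07) and 0.13 in male cells (0.05 to 0.20). The highest group was thus the one in which most of the targets were lowest. Within clusters the log2 ratio in male cells ran from -0.17 in eNB to 0.50 in IPC1, the latter of the size called. Its interval lay above 0 in 2 of 8 clusters, and iKD male cells were the highest group in 5 of 8. Nr3c1 also varied least among the 10 genes across the 8 clusters that add eNB and NB to the 6, from 2.58 in qNSC1 to 3.23 in NB, a 1.25-fold range.

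Nr3c2, the mineralocorticoid receptor, had levels of 0.726 in WT female cells, 0.852 in WT male cells, 0.751 in iKD female cells and 0.732 in iKD male cells. Over the 6 clusters together WT male cells stood a little above the other 3 groups, although within clusters WT female cells were the highest group in 6 of 8. The log2 ratio of iKD over WT in male cells was -0.22 (-0.37 to -0.07), against 0.05 (-0.07 to 0.17) in female cells. Across the 8 clusters the level was highest in eNB, at 1.02 (0.973 to 1.07), an interval that overlapped that of qNSC2 (0.815 to 1.002), and lowest in qNSC1 and NSPCs, at 0.545 and 0.553, whose intervals overlapped.

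**Figure D1:**
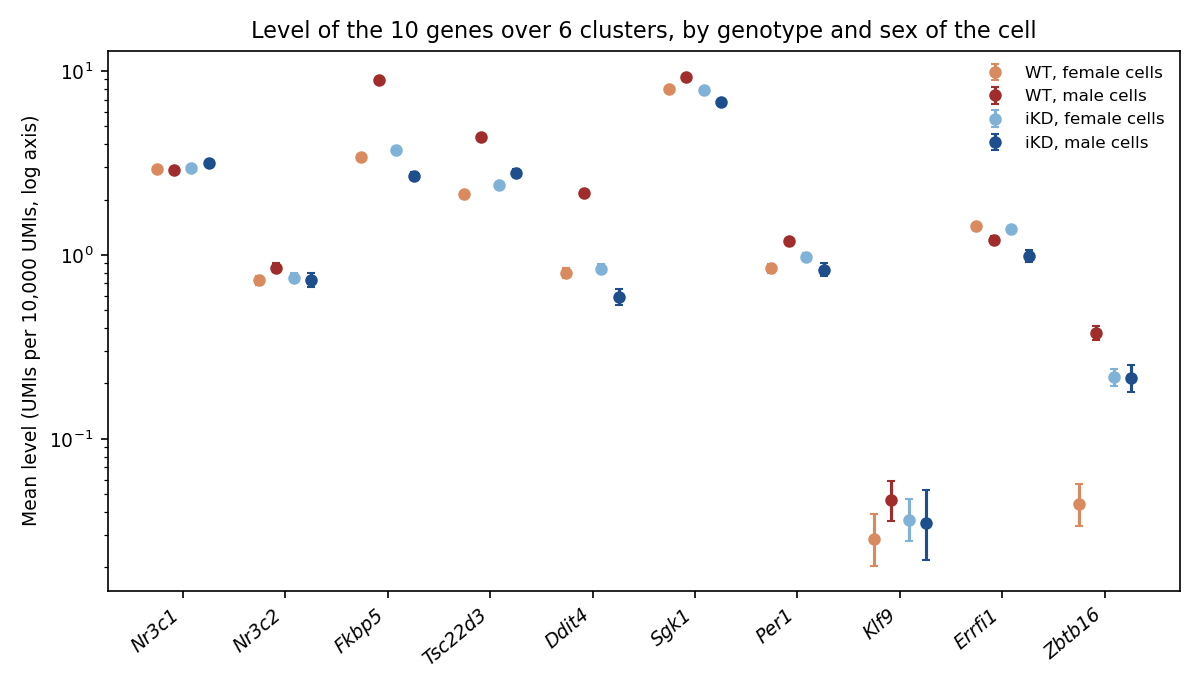
Level of each of the 10 genes over the 6 clusters (UMIs per 10,000 UMIs, log axis) in WT female, WT male, iKD female and iKD male cells, with points as means over cells and bars as exact 95% Poisson counting intervals. Fkbp5, Tsc22d3 and Ddit4 are highest in WT male cells (8.89, 4.39 and 2.17), Nr3c1 lies between 2.89 and 3.16 in all groups, and Zbtb16 is lowest in WT female cells (0.044).

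Fkbp5, the receptor cochaperone, was high in the male cells of the WT library alone. Its level was 8.89 in WT male cells (8.74 to 9.05), against 3.40 in WT female cells (3.30 to 3.5), 3.70 in iKD female cells (3.61 to 3.79) and 2.69 in iKD male cells (2.57 to 2.82). In these pooled values both groups of female cells and the iKD male cells lay between 2.69 and 3.70, and WT male cells lay far above. The shift was one of most cells: the median cell had 8.0 UMIs per 10,000 among WT male cells, 2.78 among WT female cells, 3.03 among iKD female cells and 2.35 among iKD male cells, and 94.0% of WT male cells lay above the iKD male median. At the lower end, 10% of WT male cells had under 3.17 UMIs per 10,000, a value that 65.1% of iKD male cells did not reach.

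The overall ratio of Fkbp5 differed by sex. The level over all cells was 6.20 in WT against 3.37 in iKD, which gives -0.88 (-0.91 to -0.84) as the log2 ratio. In male cells the log2 ratio was -1.72 (-1.79 to -1.65), and in female cells it was 0.12 (0.07 to 0.18). The same contrast can be read within each library: male over female was 1.39 (1.34 to 1.43) in WT and -0.46 (-0.53 to -0.38) in iKD on the log2 scale. Within clusters, male over female in iKD was below 0 in 8 of 8, from -1.37 in IPC2 to -0.29 in aNSC. In 7 of them the whole interval lay below 0. The differences between these ratios were not tested.

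The highest and the lowest group were the same in each cluster examined. In the 8 clusters, Fkbp5 was highest in WT male cells in 8 and lowest in iKD male cells in 8. The female groups between them changed order, with iKD above WT female cells in 6 clusters and below in 2. In WT male cells it ranged from 6.19 in qNSC1 to 10.1 in NB, and in iKD male cells from 1.61 in eNB to 3.05 in NB, so that the ranges did not overlap. WT female cells lay between 2.6 in qNSC1 and 4.0 in IPC1, with 5.90 in the 9 WT female cells of IPC2. In iKD female cells it was between 2.90 and 4.26 in 7 clusters and 7.59 in IPC2. These 116 iKD female cells of IPC2 were the one group outside WT male cells with a level of this size, and the 616 iKD male cells of the same cluster had a level of 2.92. The clusters were formed by the authors from gene expression, which can draw cells of like Fkbp5 level together, and IPC2 held 1067 of the 1686 WT male cells. Without IPC2, the log2 ratio of male cells over the other 5 clusters was -1.70 (-1.84 to -1.56).

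**Figure D2:**
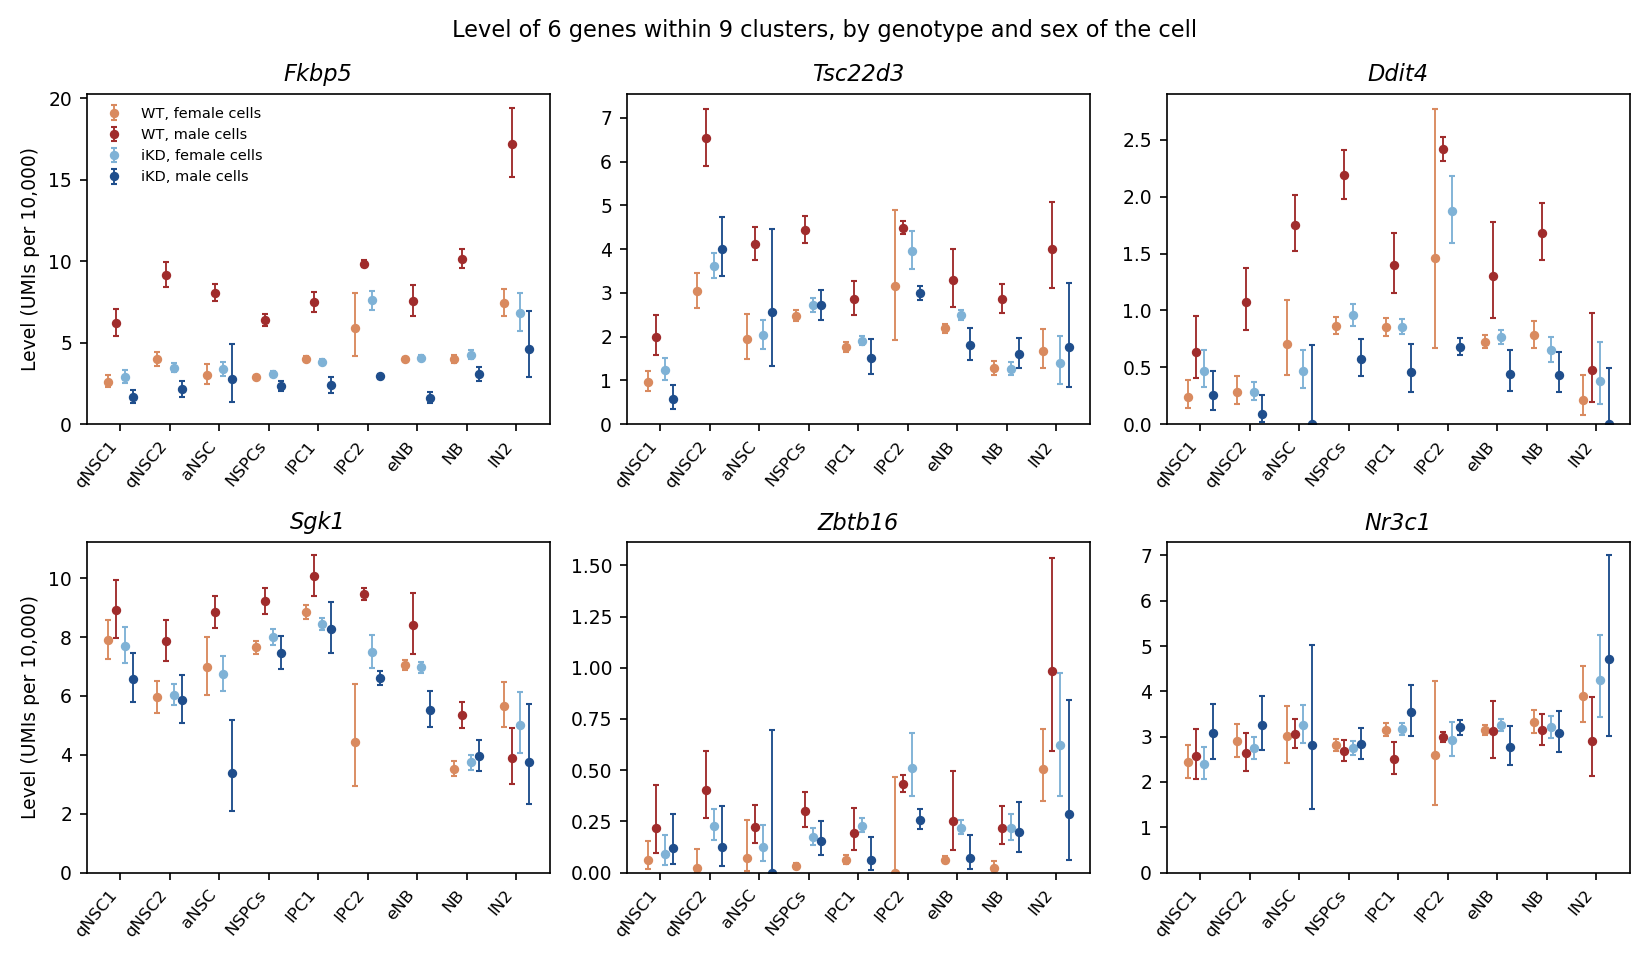
Levels of 6 genes (UMIs per 10,000 UMIs) in 8 clusters and IN2 in WT female, WT male, iKD female and iKD male cells, with points as means over cells and bars as exact 95% Poisson counting intervals. In the 8 clusters, Fkbp5 in WT male cells (6.19 to 10.1) lies above the other groups of the same cluster, and Nr3c1 shows no such separation.

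Tsc22d3, which encodes GILZ, an anti-inflammatory leucine zipper protein, and Ddit4, an inhibitor of mTORC1 were also highest in WT male cells. Tsc22d3 had levels of 2.13 in WT female cells (2.06 to 2.21), 4.39 in WT male cells (4.28 to 4.50), 2.41 in iKD female cells (2.33 to 2.48) and 2.79 in iKD male cells (2.66 to 2.92). Over the 6 clusters together it was lowest in WT female cells, whereas within clusters iKD male cells were the lowest group in 4 of 8 and WT female cells in 3. Its log2 ratio of iKD over WT was -0.38 over all cells, -0.65 (-0.73 to -0.57) in male cells and 0.17 (0.10 to 0.24) in female cells. WT male cells were the highest group in 8 of 8 clusters, from 1.99 in qNSC1 to 6.54 in qNSC2.

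Ddit4 had levels of 0.797 in WT female cells (0.751 to 0.846), 2.17 in WT male cells (2.09 to 2.25), 0.841 in iKD female cells (0.795 to 0.888) and 0.594 in iKD male cells (0.536 to 0.656). At least 1 UMI was found in 70.5% of WT male cells and in 26.6% of iKD male cells, with 36.3% and 36.2% of WT and iKD female cells between them. The log2 ratio was -0.97 over all cells, -1.85 (-2.01 to -1.70) in male cells and 0.08 (-0.04 to 0.19) in female cells. In male cells 16 of the 8908 genes above the level limit had a lower ratio than Ddit4 and 17 a lower ratio than Fkbp5. WT male cells were the highest group for Ddit4 in 8 of 8 clusters, and iKD male cells the lowest in 7.

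Over all cells, Fkbp5 and Ddit4 were the 2 of 10 genes called lower in iKD, where 0.373% of the 8836 genes above the level limit were called lower and 0.215% higher. Without IPC2 the ratio of Fkbp5 over all cells was -0.47 and no longer called. In male cells 5 of the 10 were called lower, the same 2 with Tsc22d3, Per1 and Zbtb16, where the share of all 8908 genes was 1.54%, with 0.842% called higher. With a pseudocount of 1, the calls of Per1 (-0.25) and Zbtb16 (-0.18) in male cells and of Zbtb16 (0.22) in female cells were lost. In female cells 0 of the 10 were called lower (0.385% of all genes) and 1, Zbtb16, was called higher (0.645%). Within WT, 4 were called higher in male than in female cells, Fkbp5, Tsc22d3, Ddit4 and Zbtb16 (1.66% of all genes), and within iKD 0 were called in either direction (0.573% and 0.764%). The median log2 ratio of the 10 genes was -0.12 over all cells, 0.098 in female cells and -0.48 in male cells. For the 9 of them above the level limit it was -0.14, 0.075 and -0.51, beside 0.012, 0.016 and 0.016 over all genes above the limit. As the genes were chosen with the ratios of some known, these counts describe the list.

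**Figure D3:**
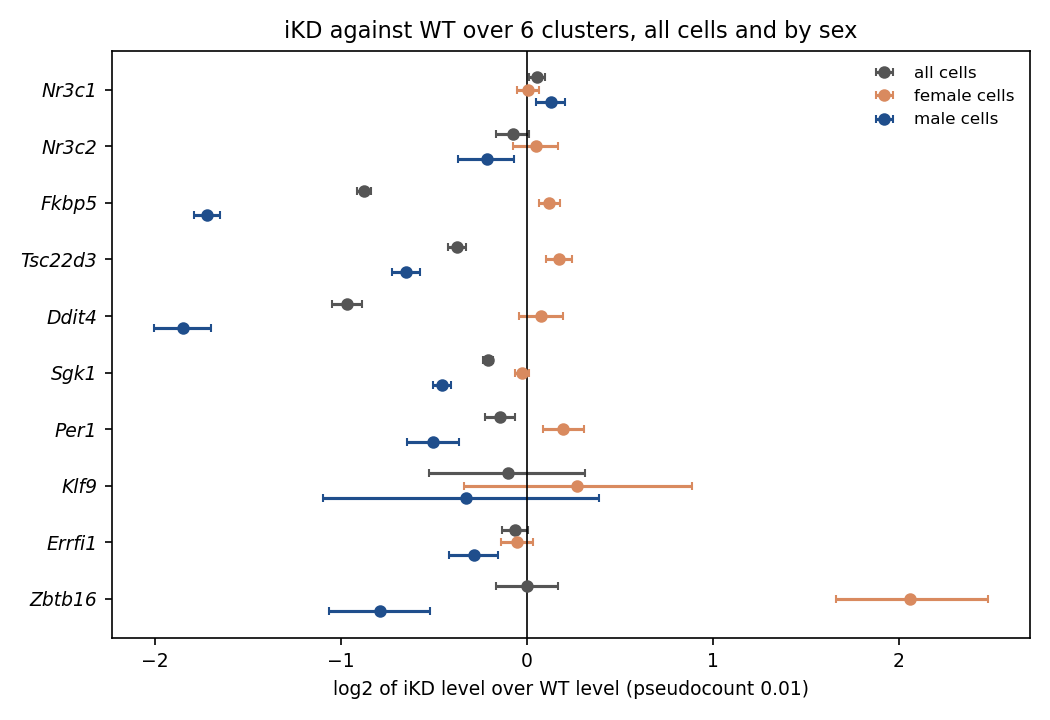
The log2 ratio of the iKD over the WT level of each gene over the 6 clusters (pseudocount 0.01) for all cells, female cells and male cells, with exact 95% binomial counting intervals as bars. Fkbp5 (-1.72) and Ddit4 (-1.85) have the lowest ratios in male cells, and Zbtb16 lies at 0.00 over all cells, 2.06 in female cells and -0.79 in male cells.

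Zbtb16, which encodes the zinc finger repressor PLZF, was at the same level in both genotypes over all cells, with differences of opposite sign in female and male cells. Its level was 0.212 in each genotype, with a log2 ratio of 0.00 (-0.17 to 0.17). By group, the level was 0.044 in WT female cells (0.034 to 0.057), 0.375 in WT male cells (0.343 to 0.408), 0.216 in iKD female cells (0.194 to 0.239) and 0.213 in iKD male cells (0.179 to 0.251). Over the 6 clusters together the iKD groups had overlapping intervals, with the WT groups on either side. Within clusters this was not so: iKD male cells lay below iKD female cells in 7 of 8 clusters, in 3 of them with the whole interval of the ratio below 0. In IPC2 the level was 0.511 in iKD female and 0.257 in iKD male cells, and there and in IPC1 iKD female cells also lay above WT male cells. The log2 ratio was thus 2.06 (1.66 to 2.48) in female cells and -0.79 (-1.06 to -0.52) in male cells, and male over female in WT was 2.83 (2.44 to 3.24). WT female cells were lowest in 7 of 8 clusters, 1 of them IPC2 with 9 such cells. They held a Zbtb16 UMI in 3.0% of cells, with a median of 7885 UMIs per cell. The share in the choroid plexus marker cluster was close to this, 2.99% (0.819 to 7.47), with a median of 7722 UMIs per cell. As 130 of the 134 cells of that cluster were iKD cells, it gives no background for the WT library.

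Sgk1, a kinase that acts on ion channels and transporters, was detected in 90.8% to 94.8% of cells in the 4 groups and differed less. Its level was 8.03 in WT female cells (7.88 to 8.18), 9.32 in WT male cells (9.16 to 9.48), 7.90 in iKD female cells (7.76 to 8.03) and 6.80 in iKD male cells (6.602 to 6.999). WT male cells were again highest in 8 of 8 clusters. The log2 ratio of -0.45 (-0.50 to -0.41) in male cells did not reach the size called, and the ratio of female cells was -0.02 (-0.06 to 0.01).

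Per1, a repressor of the circadian clock that also carries glucocorticoid response elements, had levels of 0.845 in WT female cells, 1.18 in WT male cells, 0.970 in iKD female cells and 0.831 in iKD male cells. The log2 ratio was -0.51 (-0.65 to -0.37) in male cells and 0.20 (0.09 to 0.31) in female cells. In the 6 clusters with at least 20 cells in each group, a set chosen after the data were seen, WT male cells were highest in 6. Over all 8 they were highest in 6, the exceptions being aNSC, with 6 iKD male cells, and IPC2. In IPC2 the 9 WT female cells, at 1.34, and the 116 iKD female cells, at 1.27, both lay above WT male cells, at 1.23.

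Errfi1, a feedback inhibitor of the EGF receptor, did not follow this order. Its levels were 1.43 in WT female cells, 1.21 in WT male cells, 1.38 in iKD female cells and 0.990 in iKD male cells, so that over the 6 clusters it was lower in male than in female cells in both libraries. The log2 ratio of male over female was -0.24 (-0.34 to -0.15) in WT and -0.48 (-0.60 to -0.35) in iKD. Within clusters the order was not stable: WT male cells were the highest group in 5 of 8 clusters, and WT male over female ranged from -1.42 in qNSC1 to 1.15 in IPC2. Klf9, a Krüppel-like factor, was nearly undetected in the 6 clusters, with 199 UMIs in 7164 cells and levels of 0.029 to 0.046 in the 4 groups, under the level limit. A UMI of Klf9 was found in 2.32% of these cells, far less than the 32.1% of cells with choroid plexus markers, whose level was 0.715, so the gene was counted in these tables.

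Apart from genotype and sex, the targets differed in where they were highest. Of the 8 clusters with both genotypes together, Fkbp5 was highest in IPC2, at 7.36 (7.22 to 7.49), followed by aNSC at 5.61, NB at 5.04 and qNSC2 at 4.47, and was lowest in qNSC1, at 3.13 (2.91 to 3.36). Only IPC1 and eNB, at 4.09 and 3.97, were neighbours in this order with overlapping intervals. Ddit4 and Zbtb16 were also highest in IPC2, at 1.80 and 0.382. IPC2 is also the cluster with most male cells. Within the groups, Ddit4 was highest in IPC2 in each of the 4, Zbtb16 in all but WT female cells, and Fkbp5 in both female groups, of which the WT one had 9 cells there. In both male groups Fkbp5 was highest in NB.

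Tsc22d3 was instead highest in qNSC2, at 4.04 (3.84 to 4.25), with IPC2 at 3.97 (3.87 to 4.07) within its interval, and was 3.42-fold lower in qNSC1, at 1.18. These clusters have similar names and opposite ends of the range for this gene, and within each of the 4 groups Tsc22d3 was higher in qNSC2 than in qNSC1. Sgk1 and Errfi1 were highest in IPC1, at 8.73 and 1.97, and lowest in NB, at 4.03 and 0.439, and Per1 was also lowest in NB, at 0.341 (0.297 to 0.389), where the next cluster in order, qNSC1, was at 0.703. In NB, then, Sgk1, Per1 and Errfi1 were all low, whereas Fkbp5, at 5.04, was above its level in 5 of the other clusters.

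**Figure D4:**
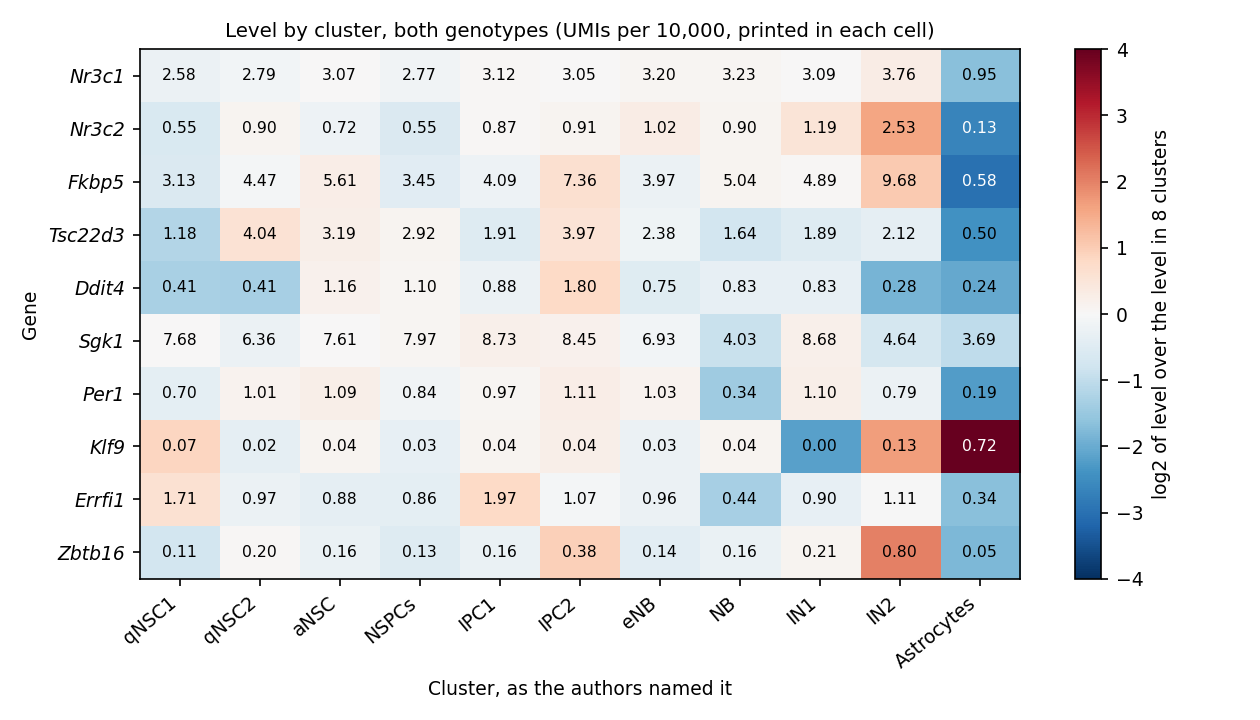
Level of each gene (rows) in 11 clusters (columns, with the authors' names) over both genotypes, printed in UMIs per 10,000 UMIs, with color as the log2 ratio to the level over the 8 clusters qNSC1 to NB. Sgk1, Per1 and Errfi1 are low in NB (4.03, 0.341 and 0.439), Nr3c2 and Fkbp5 are high in IN2 (2.53 and 9.68), and Klf9 is high in the cluster named Astrocytes (0.715).

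IN2, a cluster of 288 cells with a median of 3102.5 UMIs, had the highest levels of Fkbp5, 9.68, and of Nr3c2, 2.53, in the tables, beside 4.68 and 0.835 in the 8 clusters. The levels of Nr3c1, at 3.76, and of Zbtb16, at 0.803, were above those of the 8 clusters too, and that of Ddit4, at 0.282, was below. Its cells are much shallower than those of the other clusters, which leaves few UMIs a cell, and microglia markers were seen in a median of 86.3% of them. Within IN2 the highest and the lowest group for Fkbp5 were as elsewhere. Its level was 7.44 in 93 WT female cells (6.64 to 8.31) and 17.2 in 50 WT male cells (15.2 to 19.4). In iKD it was 6.80 in 65 female cells (5.71 to 8.04) and 4.59 in 18 male cells (2.88 to 6.96). For Sgk1 WT male cells were not the highest group, at 3.88 against 5.67 in WT female cells.

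The targets were found together in cells about as often as their separate shares give. Shares were compared after thinning each cell to 4500 UMIs by exact expectation, with shallower cells left out. A UMI of both Fkbp5 and Ddit4 was then expected in 51.6% of 1662 WT male cells, where the product of the separate shares, 95.2% and 54.1%, was 51.5%. In 1737 WT female cells the shares were 18.7% and 17.9%, in 2130 iKD female cells 20.7% and 19.8%, and in 894 iKD male cells 12.9% and 12.7%. Over the pairs with a product of at least 1%, the median ratio of observed to product was between 1.004 and 1.015 in the 4 groups. The pair furthest above was Ddit4 and Zbtb16, at 1.25 in iKD female cells and 1.31 in iKD male cells, beside 1.07 in WT male cells. In WT female cells its product was below 1%.

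Without the division by sex the median ratio was 1.008 in WT and 1.016 in iKD cells. The observed share of Ddit4 and Zbtb16 was then 1.34 times the product in WT and 1.27 times in iKD cells. Of the 8 targets, a cell of 4500 UMIs held on average 2.98 in WT female cells, 4.01 in WT male cells, 3.18 in iKD female cells and 2.98 in iKD male cells. The summed level of the 8 was 27.5 in WT male cells and between 14.9 and 17.4 in the other groups. Over single cells of 1 cluster, genotype and sex, correlations were weak. Fkbp5 and Tsc22d3 had a Pearson r of 0.084 over the 1067 WT male cells of IPC2, cells that share a library and a cluster and differ in depth.

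Of other genes that glucocorticoids induce, some stood out in the same cells. Of 28 such genes, 15 were above the level limit in male cells, and 3 of these were called lower in iKD, Hif3a, Nfkbia and Cebpb, beside 1.54% of all genes. Hif3a, a hypoxia-inducible factor subunit, had levels of 0.030 in WT female, 0.179 in WT male, 0.041 in iKD female and 0.027 in iKD male cells, the order of Fkbp5. It passed the level limit only through WT male cells, so the direction of its call was set by the limit. Nfkbia, the inhibitor of NF-kB, was at 3.37, 4.39, 3.21 and 2.46 in the same order of groups. Its log2 ratio in male cells was -0.83 (-0.92 to -0.75). Cebpb, a bZIP transcription factor, was at 2.27, 3.22, 2.25 and 2.02, which gives -0.67 (-0.76 to -0.58) in male cells. Of the 15, 13 were lower in iKD male cells, beside 45.1% of all genes, with a median of -0.19. Sesn1 was at -0.44 and Cebpd at -0.28, while Zfp36, Dusp1 and Mertk were at -0.06, 0.07 and -0.06. In female cells the 15 genes above the limit held Pim3 in place of Hif3a. Of these, 8 were lower, with a median of -0.01.

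Sult1a1, a sulfotransferase, had levels of 0.640 in WT female, 1.10 in WT male, 0.929 in iKD female and 1.09 in iKD male cells. WT female cells were thus the lowest group, as for Zbtb16. Unlike Zbtb16, Sult1a1 did not differ between WT and iKD male cells, with a log2 ratio of -0.01 (-0.14 to 0.12). Gpd1, a glycerol phosphate dehydrogenase, was also called higher in WT male than WT female cells, at 0.95 (0.62 to 1.28) on the log2 scale.

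Among inflammatory genes that glucocorticoids repress, 3 of the 8 above the limit were called lower in male than in female WT cells, where 0.519% of all genes were. These were Il1a, at -0.54 (-0.66 to -0.42), and the chemokines Ccl3, at -0.67 (-0.77 to -0.57), and Ccl4, at -0.67 (-0.74 to -0.61). In male cells the log2 ratios of iKD over WT were 0.48 (0.34 to 0.63) for Il1a and 0.46 (0.33 to 0.58) for Ccl3, whereas Ccl4 was at 0.01 (-0.09 to 0.10). In iKD 2 genes of the list were called lower in male than in female cells, Tnf at -0.58 and Ccl2 at -0.53, where 0.764% of all genes were. In WT, Il6, at 0.29, and Nlrp3, at 0.04, were not lower in male cells.

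The genes around the receptors differed little. Of 13 chaperones and cofactors, 0 were called in any of these comparisons, and in male cells the log2 ratios of iKD over WT ran from -0.32 for the coactivator Ncoa1 to 0.08 for the chaperone Hsp90aa1. Hsd11b1 and Hsd11b2, which interconvert active and inactive glucocorticoids, had levels of at most 0.0015. In the circadian clock list 8 of 15 genes were above the limit, with a median of 0.06 in male cells. In the hypoxia list 6 of 10 were (median -0.08), and in the ATF4 list 4 of 8 (median -0.05). None of these lists had a gene called in female or male cells. The activity of these pathways was not tested. Of 11 genes of the dissociation response, 9 were above the limit and 8 of them were higher in iKD male than WT male cells, with a median of 0.18 and 0 called. In female cells 1, Hspa1a, was called lower in iKD, at -1.59. The list differed far more in NB, where all 8 genes above the limit were higher in iKD male than WT male cells, with a median of 0.998 beside -0.011 over all genes, and all 10 above the limit were lower in WT male than WT female cells, with a median of -0.60. In NB, then, the WT male cells had both a high Fkbp5 level and low levels of this list. The part of the dissociation response in the values above was not tested.

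**Figure D5:**
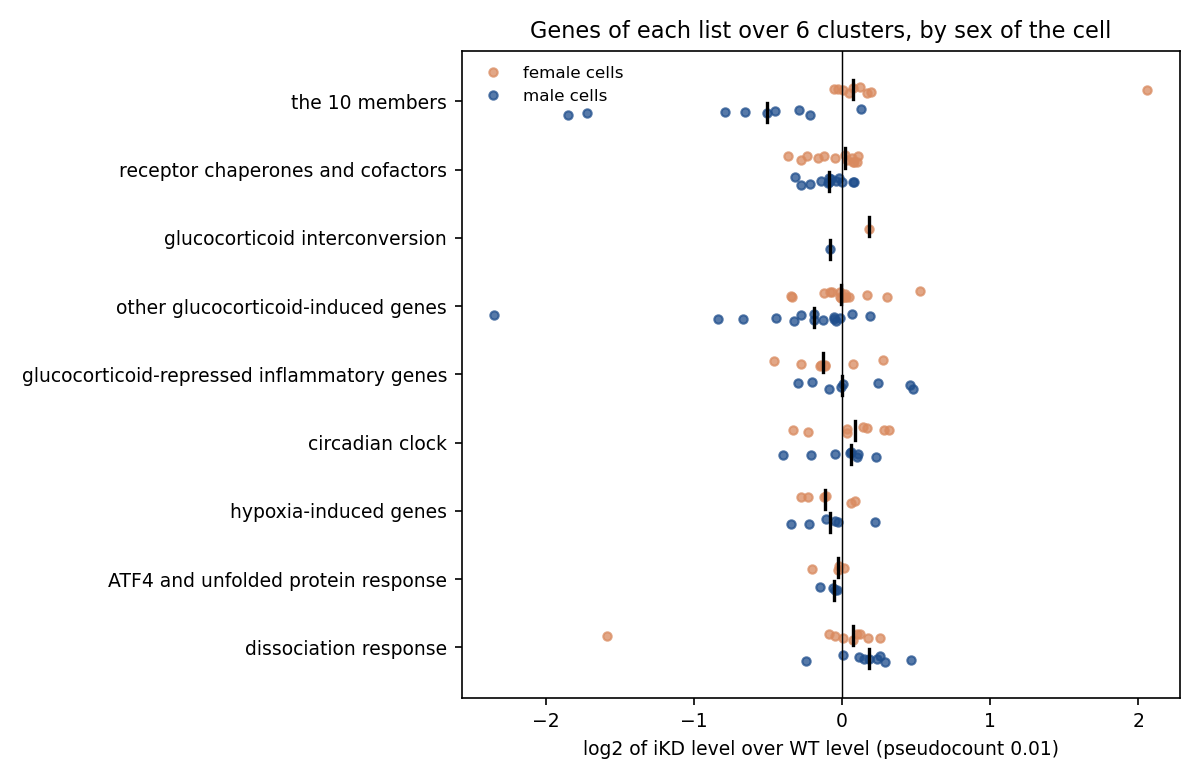
The log2 ratio of the iKD over the WT level (pseudocount 0.01) of each gene above the level limit, by list, in female and male cells of the 6 clusters, with the vertical bars as medians. Among the other glucocorticoid-induced genes 3 lie at -0.67 or lower in male cells, while the medians of the clock, hypoxia and ATF4 lists lie between -0.11 and 0.09 in both sexes.

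The pattern of Fkbp5 over 32 strata (8 clusters by genotype by sex) was most like that of Rnf169, Ccnd3, March1, Mlxip and Aff1, with Pearson r of 0.80, 0.78, 0.77, 0.73 and 0.72 among the 3838 genes with a mean level of at least 0.5. Ccnd3, which encodes cyclin D3, had levels of 6.4 in WT female, 9.75 in WT male, 6.53 in iKD female and 6.14 in iKD male cells of the 8 clusters. Among the 10 genes, Ddit4 was closest, at 0.63, followed by Tsc22d3 at 0.60, and Nr3c1 was at -0.11. With the mean of each cluster subtracted, Tsc22d3 was at 0.85 and Per1 at 0.76, while Nr3c1 was at -0.36. The strata share 2 libraries, and 1 of the 4 groups, WT male cells, stands apart in each cluster, so these values say mainly which genes share that group's position.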

How the data were processed

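Single-cell RNA sequencing of EYFP+ DG cells was analysed from 1 WT and 1 iKD library. The authors deposited natural log values, each of 1 plus a count scaled to 10,000 UMIs in the cell, in 1 table for each of 12 clusters. The methods of the study name CellRanger for alignment and deduplication and Seurat for filtering, normalization, integration and clustering. The genome build and whether reads in introns were counted are not given in the paper's methods. The submitters' processing notes list Cell Ranger 7.0.1 and Seurat 4.1.1, and also CASAVA 1.8.2, HISAT2 2.0.6, Subread and featureCounts, which the paper's methods do not name. They also give a human build, GRCh38, although the symbols are of mouse. Levels of long genes may include intronic reads.

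UMI counts were recovered from the natural log values, since the values of a cell are whole multiples of its smallest. Of 32261786 values above 0, 100% were whole within 0.01, and 0 columns were left unused. All 10804 deposited cells were used. Doublets were not called again. The study states a filter on gene number against multiplets and damaged cells. The shallowest deposited cell had 1471 UMIs, fewer than the lower limit of genes in that filter, so the deposited cells do not all meet it.

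Levels are means over cells, and ratios are log2 with a pseudocount of 0.01. Steps were tested on simulated data. Python 3.11.15, numpy 2.4.6, scipy 1.17.1, pandas 2.3.3 and matplotlib 3.10.9 were used. The 10 genes and all lists were chosen with earlier results of these data known. The genes named are the 10 genes, up to 4 per list with the largest ratios, a few members of each list named to show its spread after their values were seen, and the 5 genes most like Fkbp5. Promoter windows are from RefSeq and gene spans from GENCODE M21, both of the GRCm38 assembly, matched by symbol. No replicate check exists, since each group is 1 library of 5 pooled mice.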

Additional observations from a re-analysis of the deposited data

Results flagged for a closer look

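For 4 of the 10 genes the log2 ratio of iKD over WT had opposite signs in female and male cells, with counting intervals that did not include 0 in either sex. The ratio in male cells minus that in female cells was -1.84 for Fkbp5, -0.82 for Tsc22d3, -0.70 for Per1 and -2.85 for Zbtb16. For Fkbp5, Tsc22d3 and Per1, the male WT cells were the high group, and for Zbtb16 the female WT cells were also the low group. Each group of cells comes from 1 library, so these differences were not tested.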

How the results depend on the processing

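Of the 250 values of single genes under the alternatives, 187 stayed within the counting interval, 58 moved beyond it and 5 reversed. Restricted to female cells, the log2 ratios of Fkbp5, Tsc22d3, Ddit4 and Per1 over all cells reversed to 0.12, 0.17, 0.075 and 0.20, the number of the 10 genes lower in iKD went from 8 to 2, and the median of the 10 genes reversed from -0.12 to 0.098. In male cells only, that median was -0.48, without IPC2 -0.042, and as the mean of the 6 ratios within clusters -0.24. In female cells the ratio of Per1 reversed to -0.027 as the mean of the 6 ratios within clusters. In male cells the median of -0.48 moved to -0.22 with a pseudocount of 1 and to -0.81 as the mean of the 6 ratios within clusters, where aNSC holds 6 iKD male cells. Without thinning, 69.5% of WT male cells held both Fkbp5 and Ddit4. Of the 5 genes most like Fkbp5, 2 were shared after the mean of each cluster was subtracted, and 3 over the 6 clusters with at least 20 cells in each group, an alternative chosen after the data were seen. The cause of these changes was not tested. No paired analysis was possible because each genotype has 1 library. For Klf9, with 199 UMIs in the 6 clusters, the depth limits any comparison.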
